A study of Mus musculus with 2 samples.

Results

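The genes described here are the mouse DNA methyltransferase genes Dnmt1, Dnmt3a, Dnmt3b and Dnmt3l and the UHRF genes Uhrf1 and Uhrf2, 6 of the 23242 genes listed in the data. They were chosen by name. For each, the RefSeq transcripts were read together with the transcript models assembled from the reads that were 300 nt or longer and shared exon bases with the gene on the same strand. Together the genes had 18 RefSeq transcripts in each library, with 6 assembled models in the Dnmt3l knockout library and 4 in the wild-type library. Poly(A) RNA was taken from spermatogonial progenitor cells, the germ cells that feed spermatogenesis, of 8-day-old mice. There was 1 library from Dnmt3l knockout mice and 1 from wild-type mice, both labelled C57BL/6, and the title of the study names DNMT3L and the quiescence of these cells as its subject. The labels do not give the design of the knockout allele, the number of animals pooled or the method by which the cells were isolated. With 1 library per genotype there is no replicate check and no test between genotypes, and every difference below is between these 2 libraries.

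DNA methyltransferases place a methyl group on cytosine, in mammals mostly where a cytosine is followed by a guanine (CpG). DNMT1 copies the pattern of the old strand onto the new one after replication. UHRF1 recognises hemimethylated CpGs and brings DNMT1 to them, and UHRF2 is its close relative. DNMT3A and DNMT3B methylate DNA that carried no mark before. DNMT3L has no catalytic activity of its own, binds to both, and is needed in male germ cells for the methylation of imprinted loci and retrotransposons before birth.

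Values are FPKM, a fragment count divided by the length of the transcript and the size of the library, so they compare genes per length. Each comes with the lower and upper bound that Cufflinks gives for the estimate within that library. Those bounds do not measure the spread between animals. Read counts are not part of the data, so the depth of the libraries is unknown. The coverage that went with 1 FPKM had a median of 3.45 in the knockout library and 3.13 in the wild-type library. Ratios are log2 of (knockout FPKM + 1) over (wild-type FPKM + 1), a scale that understates differences of low genes. Over 13798 genes with at least 1 FPKM in either library, the median ratio was 0.22. Genes at least 2-fold higher in the knockout library made up 68.6% of all genes at least 2-fold different, and 47.4% after the median gene was subtracted.

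Dnmt3l was the least abundant of the 6 genes and the single one listed at 0. In the knockout library both of its RefSeq transcripts stood at 0 FPKM with an upper bound of 0, and no model was assembled over its exons. In the wild-type library the gene summed to 1.67 FPKM (bounds 0.791 to 2.68), a level above that of 11.9% of the genes compared. The wild-type signal was carried by NM_019448, a transcript of 13 exons, at 0.921 FPKM (0.497 to 1.37), and by an assembled model of 11 exons at 0.75 FPKM (0.294 to 1.23). The listed value thus goes with the knockout label, but at such low levels a 0 was also listed for other genes. Among the 1973 genes whose wild-type value lay between 1 and 3 FPKM, 65 (3.29%) were at 0 in the knockout library, and 3 of the 65, Dnmt3l included, had an upper bound of 0 as well. The next gene downstream, Icosl, was at 10.6 FPKM in the knockout library and 8.09 FPKM in the wild-type library, so the 0 did not extend to that neighbour. Of the 12 genes on either side of the 6, none was at 0 in the knockout library.

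The RefSeq table gives starts of Dnmt3l at 78042287, 78049842 and 78055335, and no transcript listed here begins at the last. The start at 78049842, called the downstream one here, carried the wild-type RefSeq signal. Dnmt3l lies on chromosome 10 (78042287 to 78063615, plus strand, mm10), and its upstream first exon of 102 nt, which overlaps the Aire gene and is known from oocytes, was in no transcript above 0 in either library. The downstream start is printed so that its CpGs can be compared with those of Dnmt1 and Dnmt3a. The window runs from 250 bases before to 50 bases after the start (RefSeq, GRCm38.p6, chr10:78049592-78049891, plus strand), with each CpG in capitals.
Dnmt3l downstream start: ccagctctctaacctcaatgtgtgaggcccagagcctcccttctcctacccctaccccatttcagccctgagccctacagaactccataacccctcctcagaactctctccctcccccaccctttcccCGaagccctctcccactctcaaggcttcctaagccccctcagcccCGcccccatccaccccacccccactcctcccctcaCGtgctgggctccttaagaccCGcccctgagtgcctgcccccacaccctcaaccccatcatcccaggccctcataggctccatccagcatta
This window held 4 CpGs, more than 31.4% of the 32851 windows of this kind in the RefSeq table, whose median is 7. The window of the unused upstream start held 6.

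Dnmt1, the maintenance methyltransferase gene (chromosome 9, 20907206 to 20959888, minus strand), was the most abundant of the 6 in both libraries. It summed to 92.3 FPKM (85.4 to 98.3) in the knockout library and 86.3 FPKM (82.3 to 90.2) in the wild-type library. The bounds overlapped and the log2 ratio was 0.10, or -0.11 with the median gene subtracted. The composition of that sum differed more than the sum. In the knockout library 24.2 FPKM (22.6 to 25.9) went to NM_001199431 and 37.1 FPKM (35.2 to 39.2) to NM_001199432, while NM_010066 was listed at 0. The wild-type signal was divided between NM_001199431, with 34.5 FPKM (32.6 to 36.3), and NM_010066, with 51.8 FPKM (49.7 to 53.9), and no signal went to NM_001199432. NM_001199433, whose first exon begins downstream of the somatic one, was at 0 in both.

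NM_001199432 begins at an upstream first exon of 156 nt that is known from oocytes, and shares its other exons with NM_010066. The remaining 2 transcripts above 0 begin at the somatic first exon of 272 nt. By these listed values the somatic first exon was in 26.2% of the Dnmt1 signal of the knockout library and in 100% of that of the wild-type library. A further 33.6% of the knockout signal lay in an assembled model, described below, that reaches no annotated first exon. Of the 61.3 FPKM of RefSeq transcripts in the knockout library, 24.2 FPKM had the somatic first exon. The files mark NM_001199432 as lacking full read support in the knockout library, where it stood at 37.1 FPKM, and in the wild-type library, and mark the somatic transcripts as fully supported in both. Cufflinks divides reads among transcripts that here differ by their first exons and by 3 nt at the start of another exon. Whether the upstream start was used in the knockout cells was not tested. Both starts are shown because they differ in CpG content (RefSeq, GRCm38.p6, minus strand, chr9:20952930-20953229 for the somatic and chr9:20959839-20960138 for the upstream start), again with CpGs in capitals.
Dnmt1 somatic start: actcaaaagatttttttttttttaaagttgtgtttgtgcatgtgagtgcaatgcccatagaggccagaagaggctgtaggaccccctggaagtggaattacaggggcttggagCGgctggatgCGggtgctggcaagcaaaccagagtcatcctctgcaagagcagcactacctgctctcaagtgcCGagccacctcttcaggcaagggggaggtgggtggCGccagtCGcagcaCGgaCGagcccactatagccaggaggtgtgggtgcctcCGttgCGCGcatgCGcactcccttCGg
Dnmt1 upstream start: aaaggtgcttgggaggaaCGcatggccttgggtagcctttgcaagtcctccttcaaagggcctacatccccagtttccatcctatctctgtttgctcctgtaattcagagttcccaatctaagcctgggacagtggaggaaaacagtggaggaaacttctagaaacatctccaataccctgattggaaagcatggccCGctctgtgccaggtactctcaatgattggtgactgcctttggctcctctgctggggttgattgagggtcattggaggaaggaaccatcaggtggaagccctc
The somatic window held 12 CpGs, more than 60.4% of all windows. The upstream window held 2 CpGs, more than 14.1% of them.

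A further difference of Dnmt1 lay along its length. The knockout library had a model of 15 exons and 2627 nt over the 3′ part of the gene, at 31.0 FPKM (27.6 to 33.2), with no counterpart in the wild-type library. It opens with 143 nt that no RefSeq transcript of the gene holds as exon and skips an exon of 174 nt. Upstream of it the level was 61.3 FPKM in the knockout library and 86.3 FPKM in the wild-type library. Over most exons that it covers the levels were 92.3 and 86.3 FPKM in the knockout and wild-type libraries. RefSeq transcripts alone thus gave a log2 ratio of -0.49 for Dnmt1, and all models together gave 0.10.

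The share of an exon extension of Dnmt1 was alike. Its transcripts differ by 3 coding nt at the start of an exon (chr9:20940552-20940554). The junction is shown with 12 nt on each side, read from a GENCODE M21 transcript (GRCm38), with the extra codon in capitals.
Dnmt1 with the codon: gtgacaccctttCAGttgaaacttcac
Dnmt1 without it: gtgacaccctttttgaaacttcac
The form with the codon made up 39.5% of the RefSeq full-length signal in the knockout library and 40.0% in the wild-type library. The form without it was all NM_001199432, marked as lacking full read support, in the knockout library and all NM_010066 in the wild-type library. The assembled model of the knockout library begins downstream of this exon and is not in these shares.

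**Figure D1:**
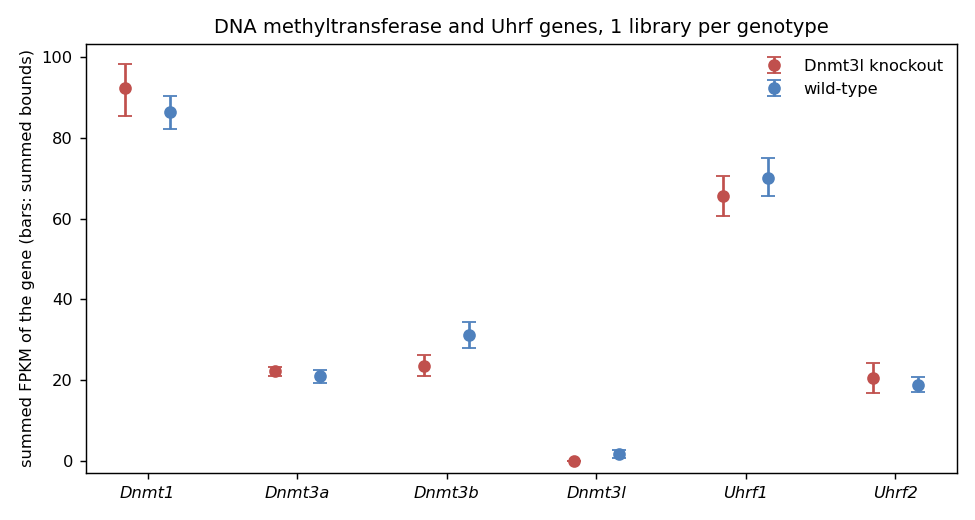
Summed FPKM of each gene (y axis) in the Dnmt3l knockout library (red, left of each pair) and the wild-type library (blue, right), with 1 library per genotype; bars are the summed Cufflinks bounds. The bounds of Dnmt3b (23.5 against 31.1 FPKM) and Dnmt3l (0 against 1.67 FPKM) do not overlap, and those of the other 4 genes do; bounds were apart for 51.6% of all genes compared.

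Uhrf1, the gene of the factor that brings DNMT1 to hemimethylated sites (chromosome 17, 56303337 to 56323486, plus strand), came next in abundance. It was at 65.5 FPKM (60.6 to 70.5) in the knockout library and 70.2 FPKM (65.5 to 74.9) in the wild-type library, with a log2 ratio of -0.10. The bounds overlapped. No model was assembled for it in either library, and all of its signal was in RefSeq transcripts with 17 exons. The ratio of Uhrf1 to Dnmt1 was 0.710 in the knockout library and 0.813 in the wild-type library. That order depends on the assembled model of Dnmt1 in the knockout library. With RefSeq transcripts alone Dnmt1 was at 61.3 FPKM there, below Uhrf1, and at 86.3 FPKM in the wild-type library, above Uhrf1. Exon levels of Uhrf1 and Dnmt1 were 62.0 and 63.7 FPKM in the knockout library and 66.7 and 73.5 FPKM in the wild-type library.

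Within Uhrf1 the downstream start carried most of the signal in both libraries. Transcripts from its first exon of 81 nt had 51.3 FPKM in the knockout library and 49.5 FPKM in the wild-type library, which is 78.3% and 70.6% of the gene in the knockout and wild-type libraries. Transcripts from the upstream first exon of 225 nt had 14.2 FPKM (12.8 to 15.7) in the knockout library and 20.6 FPKM (18.9 to 22.5) in the wild-type library. The window of the downstream start held 33 CpGs, more than 91.4% of all windows, and that of the upstream start 12. The downstream window also held 3 matches to GGGCGG, found in 35.7% of all windows, and 1 match to TTTNGCGC, found in 1.38%, counting both strands. The somatic and upstream Dnmt1 windows held neither of these. The window of the Dnmt1 start at 20952623, whose transcript was at 0 in both libraries, held 2 matches to each and 33 CpGs. That window also covers part of the somatic first exon (20952708 to 20952979), of which the somatic window covers only the 5′ end. Its CpGs and matches thus lie partly in or next to the somatic first exon.

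The transcripts of Uhrf1 also differ by 24 coding nt at the start of an exon (chr17:56313041-56313064). The junction is shown in the same way, with the 24 nt in capitals.
Uhrf1 with the stretch: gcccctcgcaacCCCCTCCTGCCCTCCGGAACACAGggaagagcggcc
Uhrf1 without it: gcccctcgcaacggaagagcggcc
In the knockout library 9.11 FPKM (8.07 to 10.2) went to NM_001111080, which lacks the stretch, so 86.1% of the signal included it. The wild-type library had no signal for either transcript that lacks it, so 100% of the signal included it.

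Uhrf2 (chromosome 19, 30030513 to 30093724, plus strand) summed to 20.4 FPKM (16.7 to 24.1) in the knockout library and 18.9 FPKM (17.0 to 20.8) in the wild-type library. The bounds overlapped and the log2 ratio was 0.11, or -0.10 with the median gene subtracted, but the make-up differed. The full-length RefSeq transcript NM_144873 was at 4.56 FPKM (3.87 to 5.24) in the knockout library and 14.0 FPKM (12.8 to 15.2) in the wild-type library, a log2 ratio of -1.43. In the knockout library a further model of 15 exons, without the RefSeq exon of 260 nt, added 2.40 FPKM, so that 6.96 FPKM reached the first exon, against 14.0 FPKM in the wild-type library. Models that begin inside the gene and end with it had 13.4 FPKM (10.9 to 16.0) in the knockout library and 4.88 FPKM (4.14 to 5.62) in the wild-type library. One model of 6 exons in each library shared all 5 introns with the other. It was at 3.83 FPKM (2.82 to 4.87) in the knockout library and 4.88 FPKM (4.14 to 5.62) in the wild-type library, with overlapping bounds. The rest of the knockout signal of such models, 9.60 FPKM (8.10 to 11.1), lay in a model of 7 exons with no counterpart in the wild-type library. Further models without a strand lay in the introns of Uhrf2, 2 in the knockout library and 8 in the wild-type library, and shared no exon base with the gene.

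**Figure D2:**
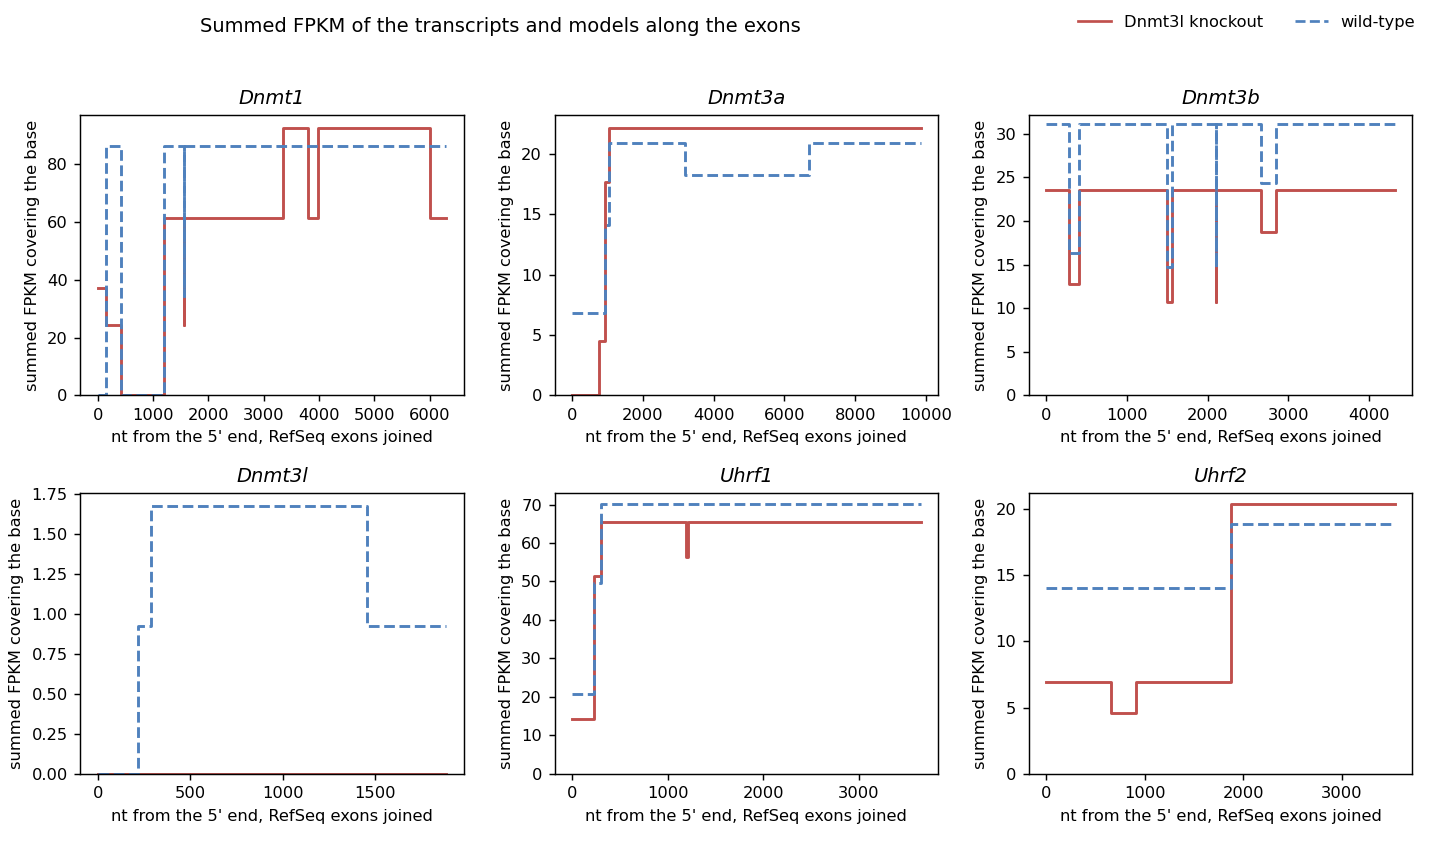
Sum of the FPKM of all transcripts and models that cover a base (y axis) along the joined RefSeq exons from the 5′ end (x axis, nt) for each of the 6 genes, in the Dnmt3l knockout library (red, solid) and the wild-type library (blue, dashed). For Uhrf2 the knockout line lies at 6.96 FPKM or below and the wild-type line at 14.0 FPKM in the 5′ part, and they lie at 20.4 and 18.9 FPKM in the 3′ part. For Dnmt3b, whose signal was all in RefSeq transcripts that span the gene, the knockout line is the lower one throughout. For Dnmt3l the knockout line lies on the axis at 0.

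Dnmt3a, a de novo methyltransferase gene (chromosome 12, 3806980 to 3914443, plus strand), summed to 22.1 FPKM (21.0 to 23.3) in the knockout library and 20.9 FPKM (19.3 to 22.6) in the wild-type library, a log2 ratio of 0.08, or -0.13 with the median gene subtracted, with overlapping bounds. It makes a long protein from an upstream promoter and a short one, DNMT3A2, from a promoter inside the gene, and the short one is known as the main form of embryonic stem cells and germ cells. The short form led in both libraries. An assembled model of 18 exons and 8913 nt with the same 17 introns in each library, starting at 3891744, had 17.6 FPKM (16.9 to 18.4) in the knockout library and 14.1 FPKM (13.3 to 15.0) in the wild-type library. That was 79.7% of the gene in the knockout library and 67.5% in the wild-type library. NM_153743, the short form in RefSeq, which lacks 3489 nt of the 3′ untranslated region, was at 0 in both.

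The signal of a long-form exon of Dnmt3a was lower in the knockout library. Models and transcripts with the 147 nt exon found in the long RefSeq form and not in the short one had 4.49 FPKM (4.04 to 4.94) in the knockout library and 6.80 FPKM (6.02 to 7.58) in the wild-type library. Their log2 ratio was -0.51. In the wild-type library this was NM_007872 at 4.12 FPKM and a model at 2.68 FPKM that begins further upstream. In the knockout library NM_007872 was listed at 0, and the signal of the 147 nt exon lay in a model of 20 exons. That model begins at 3871335, downstream of the annotated first exon, with 88 nt that no RefSeq transcript of the gene holds as exon. The first exon of the long form and its next exons of 234, 105 and 268 nt thus had no listed signal in the knockout library. In the wild-type library they were at 6.80 FPKM. Whether the knockout model makes the long protein was not tested. The starts of NM_007872 and NM_153743, 2 of the 3 in the RefSeq table, are shown (RefSeq, GRCm38.p6, plus strand, chr12:3806730-3807029 and chr12:3891494-3891793), since the library difference lies between them, with CpGs in capitals.
Dnmt3a long-form start: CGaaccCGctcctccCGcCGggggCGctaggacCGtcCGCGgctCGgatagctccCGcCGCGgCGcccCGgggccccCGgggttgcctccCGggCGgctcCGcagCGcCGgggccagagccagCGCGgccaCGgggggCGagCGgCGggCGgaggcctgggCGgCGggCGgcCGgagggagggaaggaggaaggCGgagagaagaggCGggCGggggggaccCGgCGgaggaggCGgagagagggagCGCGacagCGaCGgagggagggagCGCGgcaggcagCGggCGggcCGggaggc
Dnmt3a short-form start: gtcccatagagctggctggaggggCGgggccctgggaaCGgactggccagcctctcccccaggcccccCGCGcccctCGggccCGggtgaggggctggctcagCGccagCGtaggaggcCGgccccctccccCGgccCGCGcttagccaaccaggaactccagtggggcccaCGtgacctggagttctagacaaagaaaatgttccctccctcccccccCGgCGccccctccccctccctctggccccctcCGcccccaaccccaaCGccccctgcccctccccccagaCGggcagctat
The long-form window held 46 CpGs, more than 98.4% of all windows, and the short-form window 18, more than 70.3%. Their GC contents were 82.3% and 74.0% in the long-form and short-form windows.

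Dnmt3b, the other de novo gene (chromosome 2, 153649454 to 153687730, plus strand), was lower in the knockout library. It was at 23.5 FPKM (21.0 to 26.2) in the knockout library and 31.1 FPKM (28.0 to 34.3) in the wild-type library, with bounds apart and a log2 ratio of -0.39. Relative to the median gene the ratio was -0.59. A lower ratio was found in 14.4% of the genes compared. The nearest RefSeq genes named in these data were higher in the knockout library on both sides. Commd7 was at 30.4 FPKM in the knockout and 19.1 FPKM in the wild-type library. Mapre1, 53557 nt away, was at 88.3 and 17.1 FPKM in the knockout and wild-type libraries. That was not particular to Dnmt3b, since 11 of the 12 neighbours of the 6 genes had a ratio above 0. Most genes compared had one too, with a median of 0.22. With Dnmt3a little different, the ratio of Dnmt3a to Dnmt3b was 0.940 in the knockout library and 0.672 in the wild-type library.

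The isoforms of Dnmt3b kept nearly the same proportions. No model was assembled for it, and the same 3 of its 5 RefSeq transcripts were above 0 in both libraries. NM_001122997 had 10.8 FPKM (9.77 to 11.8) in the knockout library and 14.8 FPKM (13.6 to 16.0) in the wild-type library. NM_001003960 had 7.99 FPKM (7.07 to 8.93) in the knockout library and 9.61 FPKM (8.66 to 10.6) in the wild-type library. NM_010068 had 4.79 FPKM (4.13 to 5.46) in the knockout library and 6.75 FPKM (5.78 to 7.72) in the wild-type library. The bounds of the first and the last of these were apart and those of NM_001003960 overlapped.

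These transcripts differ by coding exons, of which an internal exon of 60 nt and a neighbouring pair of 70 and 119 nt near the 3′ end are shown, because their use decides which protein is made. Forms without the pair lack part of the catalytic domain and are known to be inactive. The sequences were read from a GENCODE M21 transcript (GRCm38, plus strand, chr2:153670849-153670908, chr2:153683608-153683677 and chr2:153684359-153684477).
Dnmt3b 60 nt exon: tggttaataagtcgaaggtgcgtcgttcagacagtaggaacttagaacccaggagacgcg
Dnmt3b 70 nt exon: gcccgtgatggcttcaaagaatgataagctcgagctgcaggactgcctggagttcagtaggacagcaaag
Dnmt3b 119 nt exon: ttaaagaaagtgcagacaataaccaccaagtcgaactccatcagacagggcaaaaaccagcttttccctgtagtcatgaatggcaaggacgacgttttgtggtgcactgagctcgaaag
The 60 nt exon was in 45.7% of the Dnmt3b signal of the knockout library and 47.4% of that of the wild-type library. The pair was in 79.6% of the signal of the knockout library and 78.3% of that of the wild-type library. The remaining signal, NM_010068, lacked all 3 exons and so belonged to the inactive form.

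**Figure D3:**
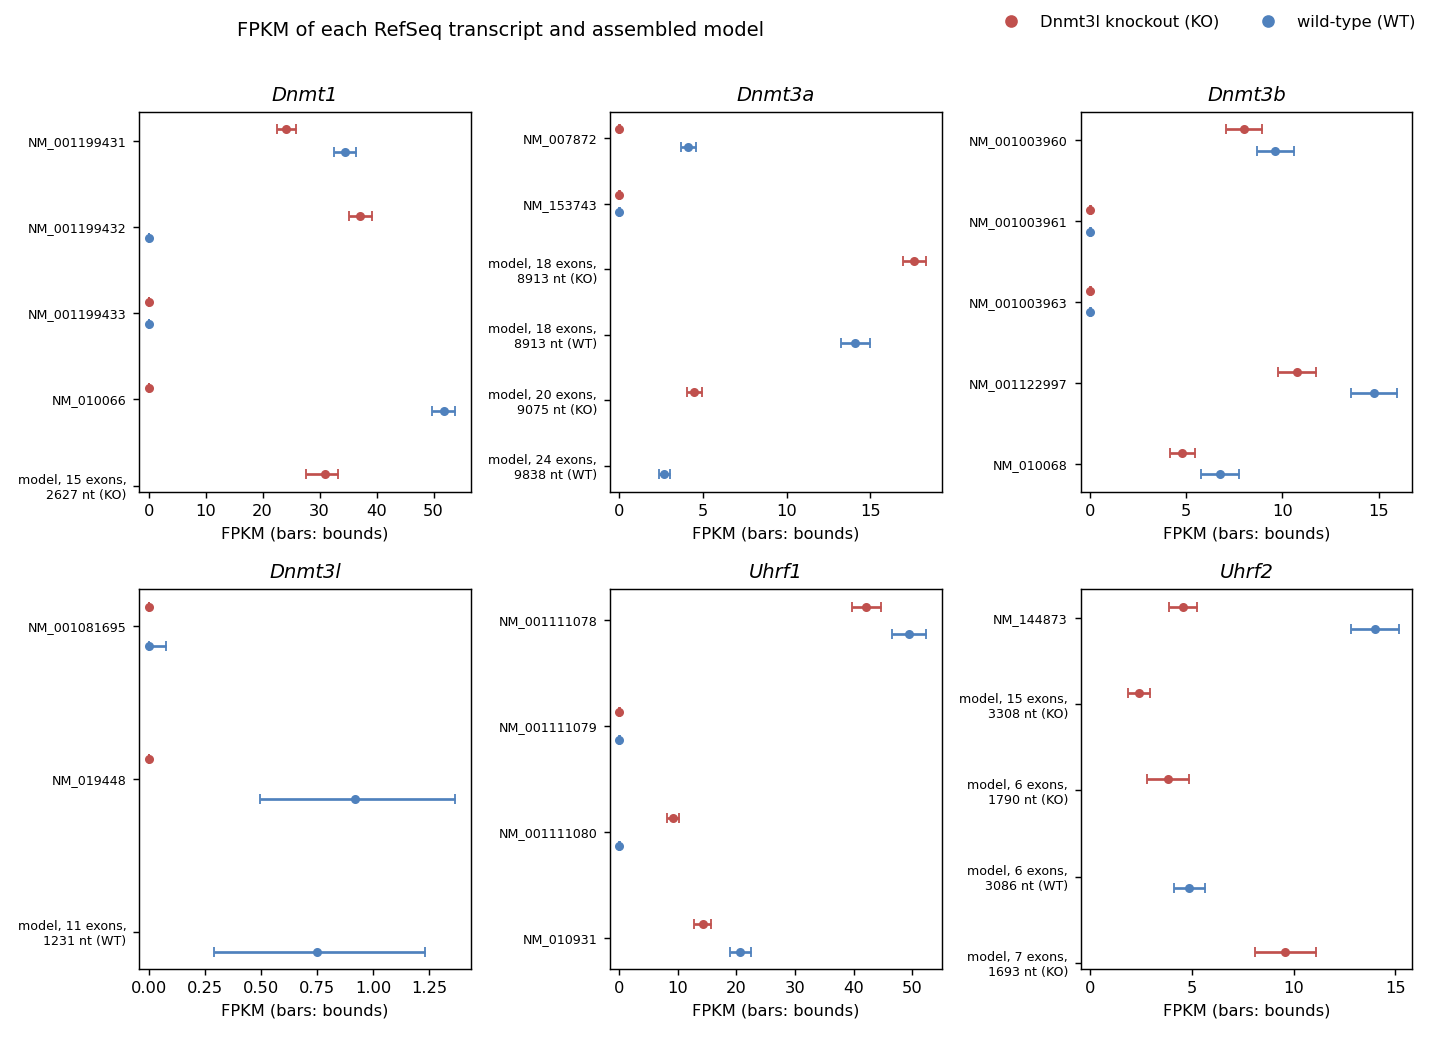
FPKM (x axis, with Cufflinks bounds) of each RefSeq transcript and assembled model of the 6 genes in the Dnmt3l knockout library (red, upper point of a pair) and the wild-type library (blue, lower point); a model is listed for the library in which it was assembled. For Dnmt1 the oocyte-type NM_001199432 stands at 37.1 FPKM in the knockout library and at 0 in the wild-type library, and NM_010066 at 0 and 51.8 FPKM in the knockout and wild-type libraries, while the 3 Dnmt3b transcripts above 0 keep their order.

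Set side by side, the summed levels, assembled models included, had the same order in both libraries. In the knockout library Dnmt1 and Uhrf1 stood apart from the rest and from each other by their bounds, and Dnmt3b, Dnmt3a and Uhrf2 followed with overlapping bounds. In the wild-type library Dnmt3b also stood apart from Dnmt3a, while the bounds of Dnmt3a and Uhrf2 overlapped. Of the 6 genes, none was at least 2-fold higher in the knockout library, where 7.69% of all genes compared were. Of the 6 genes, 1 was at least 2-fold lower, Dnmt3l, and 3.52% of all genes compared were. The bounds were apart for 2 of the 6 genes, both lower, and for 51.6% of all genes compared, with 35.5% higher and 16.1% lower. The median log2 ratio of the 6 genes was -0.01, against 0.22 over all genes compared. With the median gene subtracted, the ratio of each of the 6 was below 0, between -1.62 and -0.10.

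**Figure D4:**
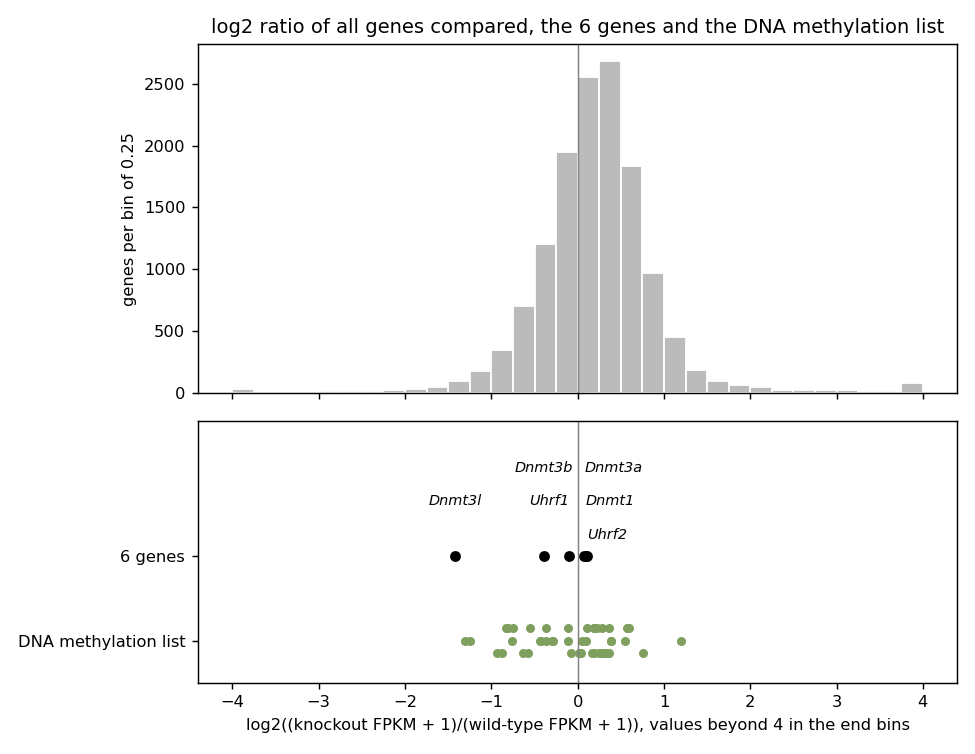
Upper panel, number of genes (y axis) by log2((knockout FPKM + 1)/(wild-type FPKM + 1)) (x axis) for 13798 genes; lower panel, the same ratio of the 6 genes (black) and of 44 measured genes of the DNA methylation list (green). The 6 genes have ratios of 0.11 or less, below the median of 0.22 over all genes, and Dnmt3l, listed at 0 in the knockout library, has the lowest.

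The 5′ and 3′ ends gave different answers for part of these genes. End levels were read on the RefSeq transcript with the highest FPKM summed over both libraries, which for Dnmt1 was NM_001199431 although it led in neither library alone. Over the first 1000 nt, Dnmt1 had a level of 51.1 FPKM in the knockout library and 86.1 FPKM in the wild-type library, and over the last 1000 nt 83.2 and 86.3 FPKM in the knockout and wild-type libraries. For Uhrf2 the 5′ levels were 6.34 FPKM in the knockout library and 14.0 FPKM in the wild-type library, and for the long transcript of Dnmt3a they were 2.21 and 7.66 FPKM in the knockout and wild-type libraries. For Dnmt3b and Uhrf1 the log2 ratios at the ends were alike, at -0.39 for both ends of Dnmt3b and -0.09 and -0.10 for the 5′ and 3′ ends of Uhrf1. End levels are sums of transcript FPKM, not read coverage. These genes had no assembled model, and their RefSeq transcripts share nearly all bases of both ends, so the likeness follows from the summing. The 5′ ratio was lower than the 3′ ratio by 1 or more on the log2 scale for 2 of the 5 genes with a transcript of 2000 nt or more, Dnmt3a and Uhrf2. The same held for 11.8% of 9139 such genes. Over those genes the median log2 ratio was -0.08 at the 5′ end and 0.11 at the 3′ end. Taken within each gene, the median difference between the ends was -0.0008, and the 5′ ratio was the lower one in 50.2% of the genes. That is not an even split, since many of the other genes had ends alike or nearly so. A difference below the 0.004 of Uhrf1 was found in 78.5% of the genes. How much of this likeness follows from the summing was not tested.

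The wider set of DNA methylation genes, which holds demethylation enzymes, methyl-CpG binding proteins, partners of DNMT1 and UHRF1 and enzymes of associated histone marks, went both ways. Of 48 names listed, 44 were measured at 1 FPKM or more in at least 1 library. Tet1 was below 1 FPKM in both, and Dnmt3c, Gm14490 and Spocd1 were not found by name in the data. The measured genes had a median log2 ratio of 0.04, against 0.22 over all genes compared. At least 2-fold higher was 1 of the 44, against 7.69% of all genes compared, and at least 2-fold lower were 2, against 3.52%. The bounds were apart for 26 of the 44, of which 12 were higher and 14 lower in the knockout library. Over all genes compared, 51.6% had bounds apart, 35.5% higher and 16.1% lower. The value of Tdg, one of these 12, rests on a model that an overlapping transcript of another name shares. Ehmt2, which encodes the H3K9 methyltransferase G9a, was the 1 higher gene, at 275.8 FPKM in the knockout library and 119.6 FPKM in the wild-type library. RefSeq transcripts alone gave Ehmt2 a log2 ratio of -0.23, in the other direction, and the exon level gave 0.12. Tet3, an enzyme that oxidises 5-methylcytosine, was at 5.60 FPKM in the knockout library and 14.6 FPKM in the wild-type library, and Zbtb38, a methyl-CpG binding zinc finger gene, at 1.25 and 4.57 FPKM in the knockout and wild-type libraries. With RefSeq transcripts alone, which drops assembled models, the ratios of Tet3 and Zbtb38 were 0.64 and 0.60, in the other direction. At the exon level they were -1.14 and -1.24, in the same direction as the summed values.

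Partners of the maintenance enzymes differed by less than 2-fold. Usp7, the deubiquitinase that binds DNMT1 and UHRF1, was at 48.7 FPKM in the knockout library and 65.9 FPKM in the wild-type library, with a log2 ratio of 0.43, in the other direction, for RefSeq transcripts alone. Pcna, the replication clamp that binds DNMT1, was at 135.2 FPKM in the knockout library and 131.9 FPKM in the wild-type library, values that lie outside their own bounds. Lig1, the replicative ligase that UHRF1 binds, was at 93.5 FPKM in the knockout library and 81.9 FPKM in the wild-type library. Hells, a chromatin remodeller needed for DNA methylation, was at 111.6 FPKM in the knockout library and 136.8 FPKM in the wild-type library. The imprint-protecting pair of Trim28 and Zfp57 was higher, with Trim28 at 170.0 FPKM in the knockout library and 134.5 FPKM in the wild-type library. Zfp57 was at 7.31 FPKM in the knockout library and 4.48 FPKM in the wild-type library, with bounds that overlapped.

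The H3K36 methyltransferase genes, whose mark the PWWP domains of DNMT3A and DNMT3B bind, of the list, Setd2, Nsd1, Nsd2 and Nsd3, had lower summed values in the knockout library. Setd2 was at 13.5 FPKM in the knockout library and 24.4 FPKM in the wild-type library, and Nsd2 at 30.8 and 52.6 FPKM in the knockout and wild-type libraries. Nsd1, at 20.8 FPKM in the knockout library and 32.7 FPKM in the wild-type library, and Nsd3, at 11.7 and 20.2 FPKM in the knockout and wild-type libraries, were named after their values were seen. With RefSeq transcripts alone the log2 ratio was -0.81 for Setd2, -2.75 for Nsd1 and -0.02 for Nsd2, and 0.26, in the other direction, for Nsd3. At the exon level it was -0.81 for Setd2, -1.07 for Nsd1, -0.40 for Nsd2 and -0.36 for Nsd3. Zbtb33, which encodes the methyl-CpG binding protein Kaiso, was at 9.44 FPKM in the knockout library and 17.5 FPKM in the wild-type library. Dmap1, a gene for a DNMT1-associated protein, was at 46.4 FPKM in the knockout library and 27.1 FPKM in the wild-type library, with a log2 ratio of 0.75 as summed and 0.13 with RefSeq transcripts alone.

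Germ cell markers were present in both libraries beside markers of other testis cells. Over all genes compared the median log2 ratio was 0.22, so most genes were higher in the knockout library. The counts of higher markers below stand beside that. All 16 germ cell and spermatogonial markers were measured, with a summed level of 1297 FPKM in the knockout library and 1464 FPKM in the wild-type library and none at 0. Of these, 8 of 16 were higher in the knockout library, with a median log2 ratio of -0.03 and single ratios as far apart as -1.71 for Kit and 1.23 for Id4. Sertoli markers, 10 of 10 measured and none at 0, summed to 994.8 FPKM in the knockout library and 419.0 FPKM in the wild-type library, and all 10 had a higher value in the knockout library. Macrophage markers summed to 797.7 FPKM in the knockout library and 411.6 FPKM in the wild-type library, with 6 of 8 higher in the knockout library and Cd68 listed at 0 there. Leydig markers summed to 133.5 FPKM in the knockout library and 58.2 FPKM in the wild-type library, with 4 of 5 higher in the knockout library and Star at 0 in both. Endothelial markers, 4 of 5 of them higher, summed to 103.7 FPKM in the knockout library and 50.3 FPKM in the wild-type library. Peritubular markers, 3 of 4 of them higher, summed to 271.7 FPKM in the knockout library and 181.8 FPKM in the wild-type library. Dnmt1 and Uhrf1 are known to be expressed with replication, and the 5 proliferation markers summed to 434.3 FPKM in the knockout library and 407.7 FPKM in the wild-type library, with 2 of 5 higher in the knockout library. Fewer cells of a type and less RNA per cell cannot be told apart in such libraries. The part of the somatic cells in the values of the 6 genes was not tested.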

How the data were processed

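Poly(A) RNA was copied with random primers and sequenced as paired-end reads of 100 nt, per the labels' protocols, which describe no step that marks the strand. The submitters' processing notes name CASAVA 1.9, TopHat2 2.0.8, Cufflinks 2.1.1 and mm10, with no settings. The deposited file of each library holds 30073 RefSeq transcripts and the models assembled there, with an FPKM, its bounds and a coverage for each. These deposited FPKM were taken unchanged. Coverage entered an alternative and the relative depth, and the deposited score was not used.

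Symbols came by accession for 28981 of 29592 RefSeq identifiers, from GENCODE M21 for 175, from names in the files for 151 and by exon overlap for 282. All 18 transcripts of the 6 genes matched by accession. A gene's value was the sum over its RefSeq transcripts and its models of 300 nt or more, and its bounds were summed likewise. A model without a strand needed a share of 0.5 of its bases in the gene's exons. Shorter models were left out, since in the knockout library they reached 1073460 FPKM together. Genes were compared if they had a transcript of 300 nt or more and 1 FPKM or more in either library. The exon level is the mean over RefSeq exon bases of the summed FPKM covering each base. No test between genotypes was made.

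The genes and lists were chosen with earlier results of these data known. From the DNA methylation list, the 6 genes of 5 FPKM or more with the largest absolute ratio were named, and Usp7, Pcna, Lig1, Hells, Trim28 and Zfp57 whatever their values. Zbtb38 and Tdg were named after their values were seen. Dnmt3c, Gm14490 and Spocd1, which are on the list, were not found by name in the data and so were not analysed here. The summing and the fold counts were checked on wild-type values in which some genes had been changed by a known factor. The models were the same on both sides there, so effects of separate assembly were not tested. Python 3.11.15 and NumPy 2.4.6 were used.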

Additional observations from a re-analysis of the deposited data

How the results depend on the processing

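No paired analysis was possible because each genotype has 1 library, and leaving out a library was not possible for the same reason. Of 42 values of the 6 genes under 7 alternatives, 32 stayed within the range that the bounds allow. With the median gene subtracted the log2 ratio was -0.11 for Dnmt1, -0.13 for Dnmt3a and -0.30 for Uhrf1. With RefSeq transcripts alone, which drops assembled models by construction, it was -0.49 for Dnmt1, -2.36 for Dnmt3a and -1.43 for Uhrf2. At the exon level Dnmt1 had -0.20. The ratio of Dnmt3l follows the added constant, with -4.15 at 0.1, -0.42 at 5 and -2.64 for coverage. Dnmt3b stayed below 0 in all 7 alternatives, though RefSeq transcripts alone and models of any length returned its main value of -0.39. The exon-level ratio of Uhrf2 was -0.29.

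Genes at least 2-fold higher numbered 1061 of 13798, and 416 with a pseudocount of 5, 676 after centring, 1862 with coverage and 571 with a filter of 10 FPKM. Genes at least 2-fold lower numbered 485, and 162, 751 and 202 with that pseudocount, centring and that filter, and 1394 with RefSeq transcripts alone. The cause was not tested. The median of the DNA methylation list was -0.17 after centring, -0.24 at the exon level and 0.18 with coverage. The median over all genes was 0.014 after centring, 0.37 with coverage and 0.016 with no filter. Alternatives that change the filter on low values give no new value for the 6 genes.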
